A study of Homo sapiens with 5 samples.

Results

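The 10 non-fibrillar collagen genes COL4A1, COL4A2, COL4A5, COL6A1, COL6A2, COL6A3, COL8A1, COL12A1, COL13A1 and COL18A1 were followed through 3 related human renal cell carcinoma lines. Their probe sets were chosen by gene symbol, through the platform's probe-to-gene table, and not by signal: 30 of the 54675 probe sets on the array carry one of these symbols. A probe set is a group of short oligonucleotides that together report 1 transcript, and its value here is a log2 signal, so a difference of 1 unit is a doubling. LM2, the lung-metastatic line of generation 2, was measured on 2 arrays, and LM1, of generation 1, on 1 array. SN12C, the parental line that the labels call non-metastatic, was measured on 2 arrays. The 2 arrays of LM2 and of SN12C are labelled biological replicates. No treatment, allele or transgene is named in the labels for any line. Each line is 1 cell line, so a difference between lines is a difference between these 3 cultures and not between metastatic and non-metastatic carcinomas at large. The series was made to look for expression differences that accompany increasing metastatic activity.

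Collagens are built from 3 polypeptide chains wound into a triple helix. The non-fibrillar types do not form the banded fibrils of types I and III but sheets, beaded filaments, hexagonal lattices, fibril coats or membrane-anchored molecules. Collagen IV is the network of every basement membrane, including those around kidney tubules and in the glomerulus. Collagen VI forms beaded microfilaments next to basement membranes, collagen XII coats fibrils, collagen VIII forms lattices beneath endothelium, collagen XIII spans the plasma membrane, and collagen XVIII is a basement membrane proteoglycan whose C-terminal fragment is endostatin.

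The arrays differed in quality in ways that bear on these genes. The control probe sets for beta-actin read 3.43 log2 units more at the 3' than at the 5' end of the transcript on LM1, while the other 4 arrays gave 0.07 to 0.47. For GAPDH this gap was 2.09 on LM1 and -0.07 to 0.14 on the others. The median gap between replicates was 0.07 in LM2 and 0.28 in SN12C, over 33376 probe sets tested. Of 10 renal carcinoma line markers with a probe set, 9 passed the filter on low values of 6.03. PAX8, a nephric lineage factor, read between 9.19 and 9.82, KRT18, an epithelial keratin, between 14.04 and 14.72, and VIM, the mesenchymal filament protein vimentin, between 13.97 and 14.37. PAX2 and LHX1, further nephric factors, lay near the filter at 6.34 to 6.46 and 6.06 to 6.08, and CDH16, the kidney cadherin, did not pass it, at 5.69 to 6.20. Of 10 endothelial markers 6 passed, PECAM1 highest at 7.07 to 7.65, while CDH5, the endothelial cadherin, read 4.89 to 4.93.

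Of the 30 probe sets, 23 passed the filter on low values (at least 6.03 on 2 or more arrays), and 9 of the 10 genes had at least 1 that did. The lead probe set of a gene is the one with the highest mean over the 5 arrays. In LM2, lead probe sets of COL6A1, COL6A2, COL12A1 and COL18A1 stood 1.07 to 1.63 log2 units above SN12C, and that of COL8A1 stood lower, at -2.43. None of the 33376 probe sets passed an adjusted p of 0.05 in limma (Benjamini-Hochberg, lowest adjusted p = 0.328), while 3178, or 9.52%, had an unadjusted p under 0.05. By a looser rule, at least 1 log2 unit with an unadjusted p under 0.05 in limma, 4 of the 9 tested lead probe sets were higher in LM2, where 1.01% of all tested probe sets were. One lead probe set was lower by the same rule, where 0.848% of all tested probe sets were. Over all 23 tested collagen probe sets, 9 were higher and 1 was lower by this rule, and 15 had LM2 arrays that did not overlap with the SN12C arrays, against 36.7% of all tested probe sets. The 4 lead probe sets higher in LM2 became 1 without LM2 replicate 1, 2 without LM2 replicate 2, 2 without SN12C replicate 1 and 3 without SN12C replicate 2. Counts over the 23 describe the probe sets that passed the filter, not all 30. The median difference of the 23 was 0.36 log2 units, beside 0.03 over all tested probe sets. With 2 arrays on each side, the smallest two-sided p of an exact permutation test is 0.333.

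**Figure D1:**
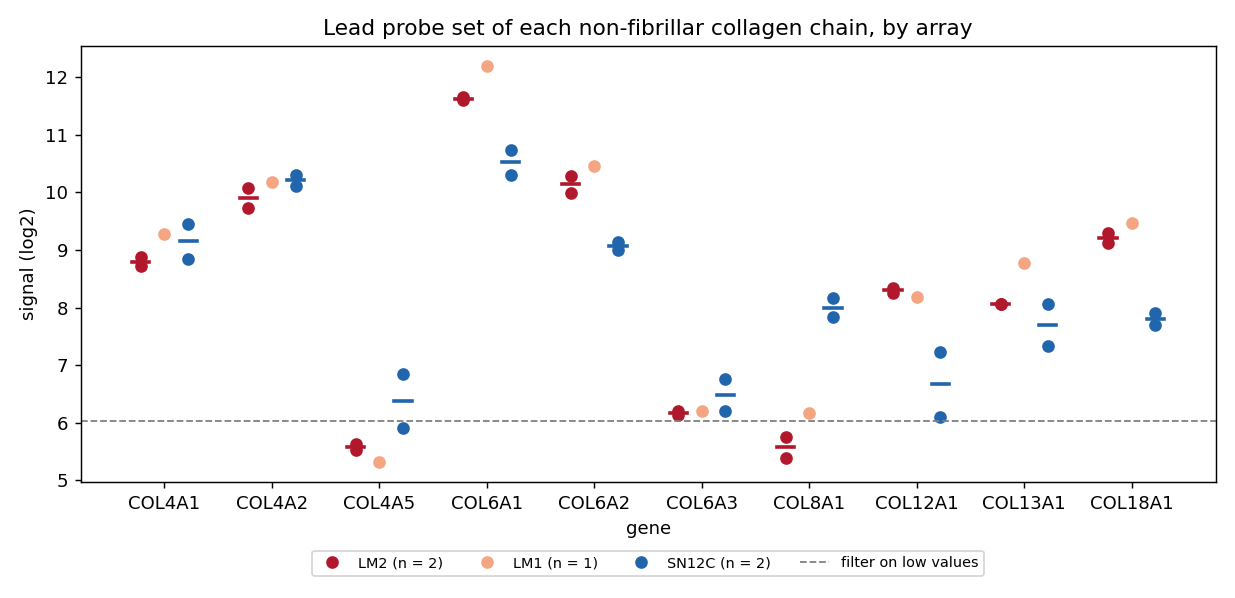
Log2 signal (y axis) of the lead probe set of each collagen gene (x axis) on each array, with LM2 left, LM1 in the middle and SN12C right; short bars are means of 2 arrays, and the dashed line is the filter on low values. COL6A1, COL6A2, COL12A1 and COL18A1 lie higher in LM2 and LM1 than in SN12C, and COL8A1 lies lower; heights of different genes come from different probes and are not comparable.

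Collagen VI is assembled from the chains encoded by COL6A1, COL6A2 and COL6A3, which join inside the cell before they are secreted as a filament. COL6A1 and COL6A2 were higher in LM2, and COL6A3 was not. The lead probe set of COL6A1 read 11.66 and 11.60 in LM2, against 10.31 and 10.73 in SN12C. Both LM2 arrays lay above both SN12C arrays, and the difference was 1.11 ± 0.18 log2 units (SE; limma adjusted p = 0.369). For COL6A2 the lead probe set read 10.28 and 9.999 in LM2, against 9.14 and 8.996 in SN12C, again without overlap, a difference of 1.07 ± 0.14 (limma adjusted p = 0.342). Both differences lay near the limit of 1. After a further quantile normalization they were 0.96 for COL6A1 and 0.90 for COL6A2. With 1 replicate left out at a time, COL6A1 ran from 0.90 to 1.32 and COL6A2 from 0.93 to 1.22. COL6A3, the largest of the 3 chains, has 1 probe set, which read 6.20 and 6.14 in LM2, against 6.76 and 6.20 in SN12C. These values lie close to the filter on low values and overlap, with a difference of -0.31 ± 0.23 (limma adjusted p = 0.679). Without SN12C replicate 1 it was -0.03, and without SN12C replicate 2 it was -0.59. The deposited COL6A3 value is the same, 6.20, on LM2 replicate 1, the LM1 array and SN12C replicate 2.

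COL6A1 is covered by 8 probe sets, of which 6 passed the filter. Of these 6, 5 stood between 1.11 and 1.49 log2 units higher in LM2 than in SN12C, with no overlap between the arrays of the 2 lines. Probe set 212940_at, for example, read 9.73 and 9.04 in LM2, against 7.73 and 8.05 in SN12C, and 212938_at read 8.86 and 8.60 against 7.02 and 7.77. The sixth, 212939_at, sat close to the filter value, at 6.32 and 6.04 in LM2 and 6.03 and 6.04 in SN12C. The 2 probe sets that did not pass the filter differed by 0.14 and -0.19. The second probe set of COL6A2, 213290_at, read 8.54 on both LM2 arrays, against 8.46 and 8.16 in SN12C, a smaller difference of 0.23 ± 0.14 (limma adjusted p = 0.679).

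In LM1 the COL6A1 probe sets went different ways. The lead probe set read 12.20 in LM1, the highest of the 5 arrays, a difference of 1.68 ± 0.22 from SN12C (limma adjusted p = 0.0874). By contrast, 212937_s_at read 7.18 in LM1, the lowest of the 5 arrays, against 7.63 and 8.52 in SN12C, and 212940_at read 7.57, against 7.73 and 8.05. The median over all 8 probe sets was therefore -0.02 for LM1 minus SN12C, beside 1.14 for LM2 minus SN12C. LM1 minus SN12C differences of COL6A1 spanned 2.58 log2 units over the 6 tested probe sets; the median span among 3280 genes with at least 3 tested probe sets was 1.07, and 9.76% of them spanned as much. For LM2 minus SN12C the COL6A1 span was 1.35, beside a median of 0.40, and 2.23% of genes spanned as much. The low end of this LM2 span was 212939_at alone, at 0.14 and close to the filter value. The other tested COL6A1 probe sets stood between 1.11 and 1.49. Genes were not matched for their number of probe sets, and a span can widen with that number. The LM1 array is the one with the excess of 3' over 5' signal given above; where along the transcript each probe set lies was not used here, and its part in these values was not tested. COL6A2 in LM1 read 10.46 with its lead probe set, against 9.14 and 8.996 in SN12C, and 9.02 with the other, against 8.46 and 8.16. Both COL6A2 probe sets were thus highest on the LM1 array, with differences of 1.40 ± 0.18 (limma adjusted p = 0.0844) and 0.71 ± 0.17 (limma adjusted p = 0.146).

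**Figure D2:**
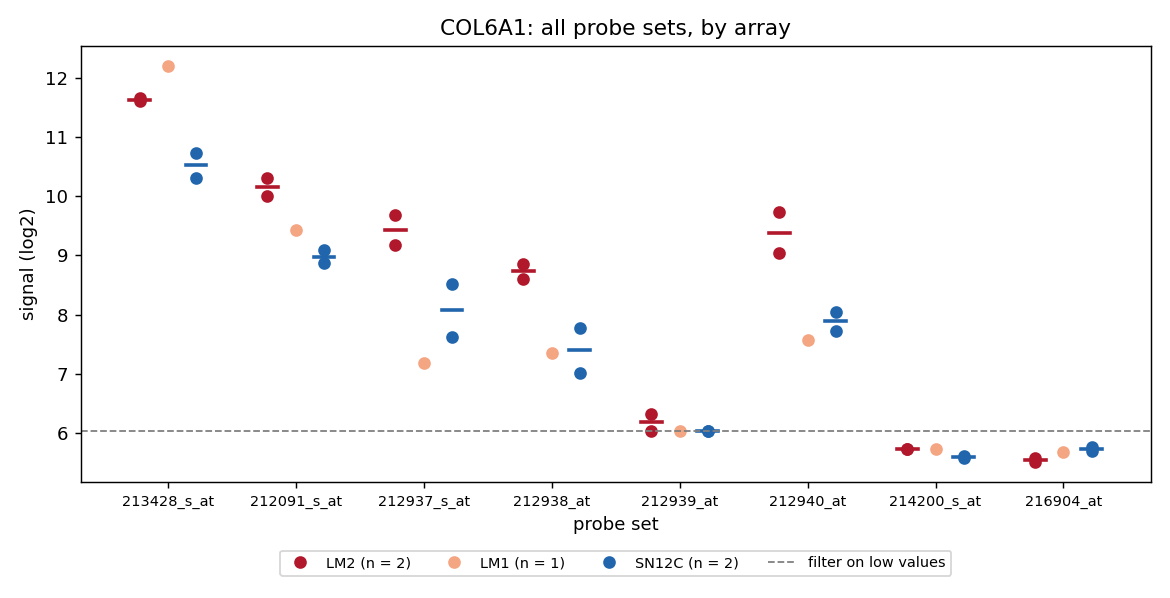
Log2 signal (y axis) of each of the 8 COL6A1 probe sets (x axis) on the LM2, LM1 and SN12C arrays, with bars at the means of 2 arrays and the filter on low values dashed. LM2 lies above SN12C by more than 1 unit in 5 probe sets, while the LM1 point is the highest of all arrays in 213428_s_at (12.20) and the lowest in 212937_s_at (7.18).

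COL18A1, which encodes the collagen XVIII core protein, was higher in LM2 and in LM1 with both of its probe sets. The lead probe set read 9.29 and 9.12 in LM2, against 7.70 and 7.90 in SN12C, a difference of 1.41 ± 0.12 (limma adjusted p = 0.328). The other probe set, 209082_s_at, read 8.66 and 8.59 in LM2, against 7.23 and 7.56 in SN12C, a difference of 1.23 ± 0.15 (limma adjusted p = 0.328). Neither pair of arrays overlapped. On the LM1 array these probe sets read 9.47 and 9.59, the highest of the 5 arrays for each, and stood 1.67 ± 0.15 and 2.20 ± 0.18 log2 units above SN12C. In limma both had an adjusted p of 0.0786, the lowest of the LM1 comparison. COL18A1 was the 1 collagen gene here for which every probe set was at least 1 log2 unit higher in both LM2 and LM1.

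COL12A1 encodes the single chain of collagen XII, a fibril-associated collagen that links fibrils to the surrounding matrix. Its lead probe set read 8.25 and 8.34 in LM2, against 6.10 and 7.23 in SN12C. The LM2 arrays were close together and above both SN12C arrays, which were far apart themselves, and the difference was 1.63 ± 0.45 (limma adjusted p = 0.47). Without SN12C replicate 1 the difference was 1.07, and without SN12C replicate 2 it was 2.20. A second probe set, 231766_s_at, read 7.69 and 7.63 in LM2, against 5.27 and 6.84 in SN12C, a difference of 1.60 ± 0.63 (limma adjusted p = 0.589). Probe set 231879_at read 6.85 and 6.67, against 5.24 and 6.37, and 234951_s_at read 6.88 on both LM2 arrays and 6.88 and 6.82 in SN12C, a difference of 0.03. In LM1 the first 2 of these read 8.18 and 7.39, above both SN12C arrays, while 231879_at read 5.66, between the SN12C arrays, and 234951_s_at read 6.45, below both, a difference of -0.40 ± 0.09 (limma adjusted p = 0.134). The fifth COL12A1 probe set did not pass the filter.

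The 250 bases before the annotated start of the genes that were higher in LM2 are shown for the 3 of them that RefSeq's promoter table (GRCh38.p14) holds, COL6A2, COL18A1 and COL12A1, so that the start regions of genes higher in the same lines can be read side by side. COL18A1 has 2 listed starts. Of the 10 genes, 8 matched the table; COL6A1 and COL8A1 did not. Capitals mark matches, on either strand, to CCAAT (known as the NF-Y box), GGGCGG (the GC box of Sp1-type factors), TATAAA (the TATA box) or TGANTCA (the AP-1 element); a GGGCGG of the opposite strand reads CCGCCC here. All are 5' to 3' on the gene's own strand.
COL6A2, chr21:46097862-46098111, + strand: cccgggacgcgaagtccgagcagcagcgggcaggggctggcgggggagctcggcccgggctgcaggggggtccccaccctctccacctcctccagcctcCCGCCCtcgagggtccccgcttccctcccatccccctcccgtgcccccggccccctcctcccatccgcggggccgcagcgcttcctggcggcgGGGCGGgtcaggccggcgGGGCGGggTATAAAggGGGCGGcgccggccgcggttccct
COL18A1 first start, chr21:45404915-45405164, + strand: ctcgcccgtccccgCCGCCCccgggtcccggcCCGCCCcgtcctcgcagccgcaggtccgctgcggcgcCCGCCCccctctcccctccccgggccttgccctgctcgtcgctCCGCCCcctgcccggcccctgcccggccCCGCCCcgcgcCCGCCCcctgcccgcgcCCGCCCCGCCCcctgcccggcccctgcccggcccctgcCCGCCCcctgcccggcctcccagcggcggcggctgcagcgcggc
COL18A1 second start, chr21:45455272-45455521, + strand: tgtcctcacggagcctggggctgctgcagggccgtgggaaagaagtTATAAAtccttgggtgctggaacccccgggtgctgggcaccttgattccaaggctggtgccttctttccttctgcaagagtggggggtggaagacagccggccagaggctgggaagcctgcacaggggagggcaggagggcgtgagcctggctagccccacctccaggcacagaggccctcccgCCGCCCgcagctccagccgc
COL12A1, chr6:75206054-75206303, - strand: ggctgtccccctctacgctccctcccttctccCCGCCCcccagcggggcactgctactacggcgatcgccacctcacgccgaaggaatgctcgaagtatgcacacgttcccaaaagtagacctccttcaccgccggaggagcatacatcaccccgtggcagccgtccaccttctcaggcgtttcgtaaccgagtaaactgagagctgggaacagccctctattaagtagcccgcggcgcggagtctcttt
The window before COL6A2 held 4 GGGCGG matches and 1 TATAAA, which begins 32 bases before the start. The first COL18A1 window held 9 GGGCGG matches, 2 of which share a base, and 88.4% of its bases are G or C. Its second window held 1 GGGCGG and 1 TATAAA, and the COL12A1 window held 1 GGGCGG. Among 35116 promoters of the table, windows of this length held GGGCGG in 42.6%, CCAAT in 32%, TATAAA in 10.7% and TGANTCA in 6.57%. A match is a description of letters and not a measured binding site.

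COL8A1, a chain of the lattice-forming collagen VIII found beneath endothelium and in the cornea, was the collagen gene with the largest difference. Its lead probe set read 5.75 and 5.39 in LM2, against 8.16 and 7.84 in SN12C. The 2 lines did not overlap, and the difference was -2.43 ± 0.20 (limma adjusted p = 0.328). Both LM2 values lie below 6.03, near background, so the size of this difference is uncertain. On the LM1 array the probe set read 6.16, also below both SN12C arrays, a difference of -1.84 ± 0.25 (limma adjusted p = 0.088). Of its 2 further probe sets, which did not pass the filter, 214587_at read 4.19 and 3.98 in LM2, against 4.92 and 5.32 in SN12C, and 221152_at differed by 0.01.

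Collagen IV chains did not differ between LM2 and SN12C by the looser rule. COL4A1 and COL4A2 encode the 2 chains of the collagen IV that occurs in all basement membranes, and COL4A5 encodes a chain of the network of the mature glomerulus. COL4A1 read 8.72 and 8.87 in LM2, against 8.85 and 9.46 in SN12C, and the arrays overlapped (difference -0.36 ± 0.26, limma adjusted p = 0.679). Without SN12C replicate 1 this difference was -0.66, and without SN12C replicate 2 it was -0.06. COL4A2 read 10.07 and 9.73 in LM2, against 10.12 and 10.30 in SN12C, without overlap but with a difference of only -0.31 ± 0.17 (limma adjusted p = 0.679). Second probe sets of these genes gave -0.28 ± 0.31 for COL4A1 and -0.21 ± 0.23 for COL4A2. All 4 probe sets thus stood at -0.36 to -0.21 log2 units in LM2, and 3 of the 4 overlapped between the lines.

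In LM1 the 2 probe sets of each collagen IV gene disagreed. The lead probe sets read 9.28 for COL4A1 and 10.19 for COL4A2, inside the range of the SN12C arrays. The second probe set of COL4A2, 211966_at, read 6.13 in LM1, against 7.70 and 8.03 in SN12C, a difference of -1.73 ± 0.28 (limma adjusted p = 0.101). That of COL4A1, 211981_at, read 7.17 in LM1, against 7.52 and 8.28 in SN12C. The excess of 3' signal on the LM1 array stands beside these values too, and its part was not tested. COL4A5 could not be tested: its lead probe set read 5.52 and 5.62 in LM2, against 5.90 and 6.85 in SN12C, so that 1 array of the 5 reached the filter value, and in LM1 it read 5.31.

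COL4A1 and COL4A2 are transcribed in opposite directions from a shared start region, with 126 bases between their first bases in the RefSeq table. The 250 bases before COL4A2 contain all of that stretch and are shown because both genes start from it and neither met the looser rule in LM2.
COL4A2, chr13:110307034-110307283, + strand: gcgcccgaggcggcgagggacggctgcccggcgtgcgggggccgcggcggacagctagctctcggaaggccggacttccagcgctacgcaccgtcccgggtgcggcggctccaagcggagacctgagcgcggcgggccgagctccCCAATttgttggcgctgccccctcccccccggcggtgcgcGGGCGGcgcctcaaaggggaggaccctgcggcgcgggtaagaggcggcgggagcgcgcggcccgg
The window held 1 CCAAT, beginning 105 bases before the COL4A2 start, and 1 GGGCGG. Both lie in the stretch between the 2 genes.

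COL13A1 encodes collagen XIII, a transmembrane collagen of cell adhesion sites. Its lead probe set, 211343_s_at, read 8.07 on both LM2 arrays, against 8.07 and 7.34 in SN12C, a difference of 0.36 ± 0.30 (limma adjusted p = 0.679). The deposited value is identical on both LM2 arrays and SN12C replicate 1, so the difference was 0 without SN12C replicate 2 and 0.73 without SN12C replicate 1. In LM1 it read 8.78, the highest of the 5 arrays, 1.08 ± 0.36 above SN12C (limma adjusted p = 0.223). The other 2 probe sets end in _x_at, a type that can bind several transcripts, and differed by 0.11 and 0.21 in LM2 and by 0.03 and 0.30 in LM1. Equal values occurred in both LM2 arrays for 3 of the 23 tested collagen probe sets and in both SN12C arrays for 0. Over all 33376 tested probe sets, 4959 were tied in LM2 and 1814 in SN12C. The labels do not say how such ties arose, and ties shrink the estimated spread.

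Comparisons of LM2 and of LM1 with SN12C use the same 2 SN12C arrays, so their values are given side by side and not as separate support. In LM1, 3 lead probe sets (COL6A1, COL6A2 and COL18A1) were at least 1 log2 unit higher than SN12C with an unadjusted limma p under 0.05, where 4.15% of all tested probe sets were. One, COL8A1, was lower, where 4.6% were. Over all 23 tested collagen probe sets, 4 were higher and 2 lower by this rule, the second lower being 211966_at of COL4A2. None of the 33376 probe sets passed an adjusted p of 0.05 in limma in this comparison (lowest adjusted p = 0.0786), and 7757, or 23.2%, had an unadjusted p under 0.05. LM1 rests on 1 array and borrows the spread of the other lines. For the lead probe set of COL12A1 the LM1 difference was 1.51 ± 0.55, with an adjusted p of 0.246 in limma. It was 0.95 without SN12C replicate 1 and 2.08 without SN12C replicate 2, and the median over all 5 COL12A1 probe sets was 0.19 in LM1, beside 0.96 in LM2.

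**Figure D3:**
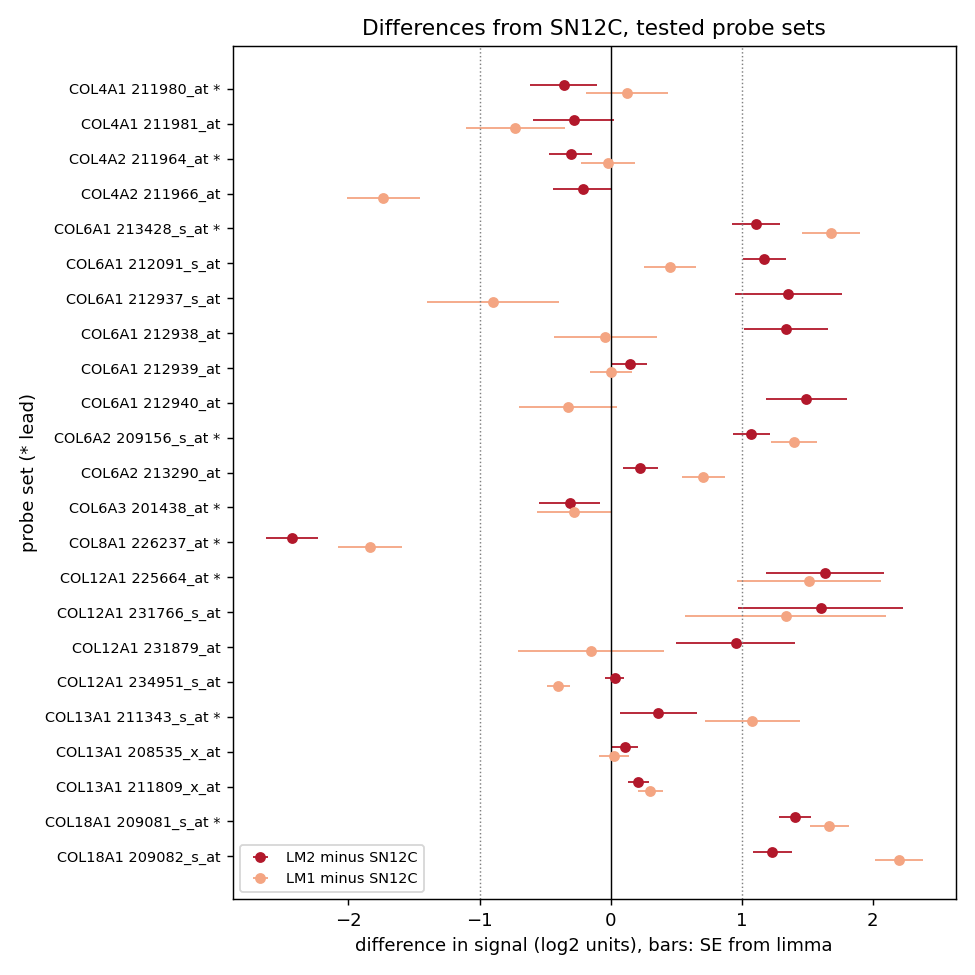
Differences in log2 signal (x axis; points, with bars for the limma standard error) of LM2 and of LM1 from SN12C for the 23 tested collagen probe sets (rows; asterisks mark lead probe sets), with dotted lines at 1 and -1. In LM2 all probe sets of COL18A1 and 5 of 6 of COL6A1 lie above 1, while in LM1 the COL6A1 probe sets run from -0.90 to 1.68.

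Between LM2 and LM1 no lead probe set of the 9 met the looser rule in either direction. Over all 23 tested collagen probe sets, 4 were higher in LM2 by this rule and 0 lower, where 5.66% of all tested probe sets were higher and 1.61% lower. None of the 33376 probe sets passed an adjusted p of 0.05 in limma here either, and 6974, or 20.9%, had an unadjusted p under 0.05. COL12A1 was 0.12 ± 0.55 higher in LM2, and the other 8 stood between -0.71 and -0.03. COL13A1 had the difference nearest to 1 unit, at -0.71 ± 0.36 (limma adjusted p = 0.401), and the lowest p-values were those of COL6A1 at -0.57 ± 0.22 (limma adjusted p = 0.297) and COL8A1 at -0.59 ± 0.25 (limma adjusted p = 0.318). Probe sets other than the lead went the other way for COL6A1: 212937_s_at was 2.25 ± 0.50 and 212940_at 1.82 ± 0.38 log2 units higher in LM2 than in LM1 (limma adjusted p = 0.162 and 0.151). COL4A2 showed the same split, with -0.29 ± 0.20 for its lead and 1.52 ± 0.28 for 211966_at (limma adjusted p = 0.136).

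Of the 4 genes that were higher in LM2, 3 lie on chromosome 21. In the order of the 166 measured genes of that chromosome, COL18A1 is number 152, COL6A1 number 156 and COL6A2 number 157, and the collagen VI genes are adjacent. Over the 163 other chromosome 21 genes the median LM2 minus SN12C difference was 0.32 log2 units, beside 0.03 over all 15024 genes tested through 1 probe set. The 3 collagens ranked 6, 16 and 17 of the 166 by that difference. Between them lie 3 measured genes. LINC01694, a long non-coding RNA gene, stood at 1.15, the folate carrier gene SLC19A1 at 0.67, and PCBP3, a poly(C)-binding protein gene, at 0.06. SLC19A1 read 10.07 and 10.09 in LM2, against 9.03 in SN12C replicate 1 and 9.78 in SN12C replicate 2. Its difference thus leans on SN12C replicate 1. LINC01694 read 6.24 and 6.75 in LM2, against 5.33 and 5.36 in SN12C. Both SN12C values of LINC01694 lie below 6.03, near background, so the size of its difference is uncertain. Chromosome medians were not calculated without SN12C replicate 1. COL12A1 is on chromosome 6, where the median was 0.06, COL8A1 on chromosome 3 (0.11), and COL4A1 and COL4A2 on chromosome 13 (0.07). COL6A3, the collagen VI chain that was not higher, is on chromosome 2, where the median was -0.11. Gene copy number was not measured, and its part was not tested.

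**Figure D4:**
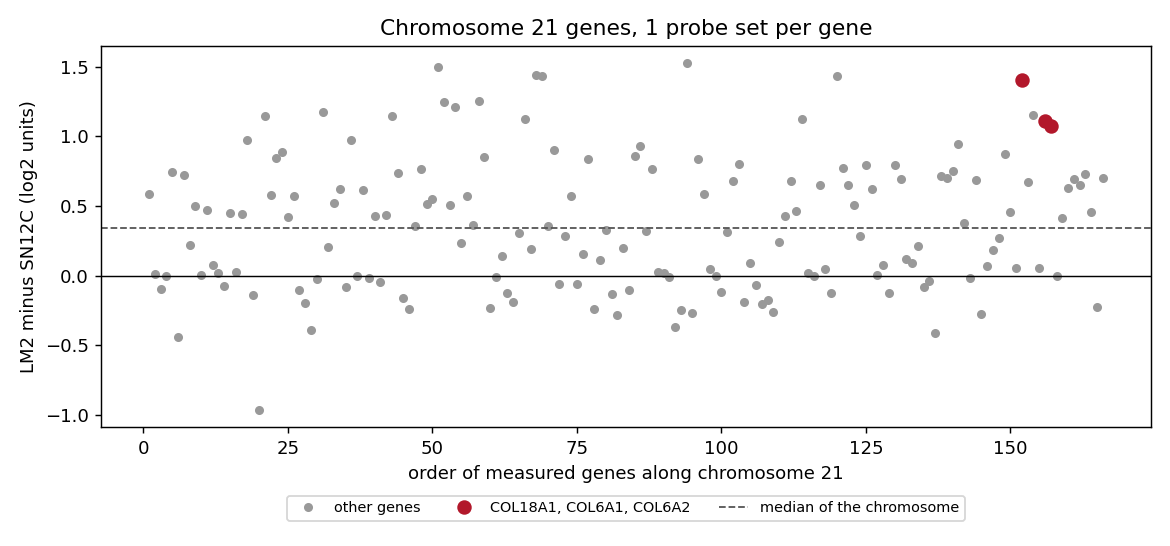
LM2 minus SN12C difference in log2 signal (y axis) of 166 chromosome 21 genes in their order along the chromosome (x axis), 1 probe set per gene; the dashed line is the chromosome's median. COL18A1, COL6A1 and COL6A2, in red, lie near the right end at 1.41, 1.11 and 1.07, within the range of the other genes, which reach 1.53.

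Of 22 further non-fibrillar collagen chains with a probe set, 14 passed the filter, and 1 met the looser rule in LM2. It was COL9A3, a chain of the cartilage collagen IX, which read 8.95 and 8.60 in LM2 and 8.53 in LM1, against 6.17 and 6.85 in SN12C, a difference of 2.26 ± 0.31 in LM2 (limma adjusted p = 0.342). The next largest were COL4A3, a glomerular collagen IV chain, at -0.29, COL25A1 at 0.18 and COL20A1 at -0.14, none past the rule. The median of the 14 was 0.05 in LM2. Among all 15024 genes tested through 1 probe set, 2.27% met the looser rule in LM2 in either direction. COL4A6, which neighbours COL4A5, did not pass the filter.

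Partners of these collagens in the basement membrane differed little. None of 15 tested laminin, nidogen and related genes met the looser rule in LM2, with a median of -0.02. The largest were FRAS1, a protein of embryonic basement membranes, at 0.67 ± 0.10, LAMC1, the laminin gamma 1 chain, at -0.59 ± 0.18, NID1, which bridges laminin and collagen IV, at 0.46 ± 0.13, and AGRN, the proteoglycan agrin, at -0.46 ± 0.18. In LM1, FRAS1 met the rule at 1.34 ± 0.13 (limma adjusted p = 0.0786).

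Among 14 tested receptor genes 0 met the rule in LM2, with a median of -0.01. ITGAV, the integrin alpha V subunit, stood at -0.80 ± 0.15, ANTXR2, which binds collagen IV and laminin, at -0.64 ± 0.29, and ADGRG1, an adhesion receptor known for binding the fibrillar collagen III, at 0.61 ± 0.10. CSPG4, the proteoglycan NG2 that binds collagen VI, read 6.24 and 6.41 in LM2, against 6.14 and 5.83 in SN12C, but 8.001 in LM1. CSPG4 and ADGRG1 met the rule in LM1, at 2.01 ± 0.19 and 1.65 ± 0.12, and both were lower in LM2 than in LM1 by the same rule, at -1.67 ± 0.19 and -1.04 ± 0.12.

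Genes for collagen folding, cross-linking and export were mostly a little higher in LM2, 15 of the 19 tested, with a median of 0.21, beside 55.8% of all genes higher. None met the rule. The collagen chaperone SERPINH1 read 11.65 and 11.64 in LM2, against 10.31 and 11.56 in SN12C, so that its difference of 0.71 ± 0.50 came from SN12C replicate 1. GORASP1, a Golgi stacking protein, FKBP14, a prolyl isomerase of the endoplasmic reticulum, and KLHL12, a ubiquitin ligase adaptor that enlarges the vesicles carrying procollagen, stood at 0.65, 0.65 and 0.64. SN12C replicate 1 was also the low array for GORASP1, with 9.25 and 9.13 in LM2 against 8.06 and 9.02 in SN12C, and for FKBP14, with 7.91 and 8.02 against 6.86 and 7.78. The mean of the list was 10.02 on both LM2 arrays, against 9.75 and 9.95 in SN12C. PXDN, the peroxidase that cross-links collagen IV, read 8.11 and 8.29 in LM2 and 9.30 in LM1, against 8.69 and 8.88 in SN12C. It stood lower in LM2 than in SN12C at -0.58 ± 0.12 (limma adjusted p = 0.413) and lower than in LM1 at -1.10 ± 0.15 (limma adjusted p = 0.114).

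Of 12 tested genes for fibril and filament partners of collagens VI and XII, 2 were lower in LM2 by the rule and 0 higher, with a median of -0.01. Of all 15024 genes tested through 1 probe set, 2.27% met the rule in LM2 in either direction. TNC, the glycoprotein tenascin-C, which collagen XII can bind, read 6.93 and 7.14 in LM2, against 10.71 and 9.25 in SN12C, a difference of -2.94 ± 0.59 (limma adjusted p = 0.404). FBN2, a microfibril protein, read 8.41 and 7.69 in LM2 and 7.48 in LM1, against 9.76 and 10.08 in SN12C, a difference of -1.87 ± 0.32 in LM2 (limma adjusted p = 0.373). MFAP5, a further microfibril protein, was 0.97 ± 0.11 higher in LM2 (limma adjusted p = 0.328), just under the limit of 1, and TNXB stood at 0.16. MFAP5 read 12.05 in LM1 and met the rule as higher in LM2 than in LM1, at 1.0004 ± 0.13.

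Fibroblasts make collagens VI and XII in tissue, and their markers stood higher in LM2 in part. The mean of 12 fibroblast markers was 8.08 and 8.01 in LM2 and 7.80 in LM1, against 7.17 and 7.49 in SN12C. Of the 9 tested, 6 were higher in LM2, with a median of 0.24. By the rule, which 2.27% of 15024 genes met in either direction, 2 were higher in LM2: COL3A1, a fibrillar collagen chain, at 3.04 ± 0.79 and S100A4, a calcium-binding protein, at 3.70 ± 0.34. THY1 stood at 1.31 ± 0.46 and FBLN1 at 0.43 ± 0.17, while COL1A1, the main fibrillar chain, stood at -0.01, the proteoglycan gene DCN at -0.06 and PDPN at -0.22. SN12C replicate 1 read below SN12C replicate 2 for COL3A1, at 6.98 against 8.98, and for THY1, at 9.73 against 10.83. In LM1, 2 met the rule, S100A4 at 1.84 ± 0.42 and FBLN1 at 1.34 ± 0.20. LUM, DPT and FAP lay below the filter value on every array, and LUM read between 4.08 and 4.37. Means of the endothelial markers were 5.94 and 5.97 in LM2 and 6.06 in LM1, against 6.30 and 6.17 in SN12C. KDR, a VEGF receptor, was lower in LM2 at -1.42 ± 0.14, reading 5.53 and 5.51 against 7.10 and 6.79 in SN12C. Both LM2 values of KDR lie below 6.03, near background, so the size of this difference is uncertain. Of the 6 tested, 2 were higher in LM2, the larger difference being that of VWF at 0.38 ± 0.09. Leukocyte markers averaged 6.21 and 6.27 in LM2, 6.30 in LM1 and 6.41 and 6.21 in SN12C, and those of lung epithelium 6.72 on both LM2 arrays, 6.70 in LM1 and 6.87 and 6.73 in SN12C. The part of other cells in the collagen values was not tested.

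Genes with the most similar profile to each of the 5 collagens at least 1 log2 unit apart were found by the root mean square difference over the 5 arrays, after each profile was centred on its own mean, among 15015 other genes. Nearest to COL6A1 were NUDT11 (0.04 log2 units), TIAM1 (0.09) and WDR90 (0.09), and nearest to COL6A2 were C19orf33 (0.03), MKX (0.08) and MMP24 (0.08). COL18A1 had ALDH5A1 (0.10), BACE2 (0.12) and PYCARD (0.13), and COL12A1 had MEST (0.10), SLC18A3 (0.15) and UBR7 (0.18). TIAM1 and BACE2 are also on chromosome 21. Profiles of COL8A1 were matched less closely, by ERRFI1 (0.21), SPP1 (0.24) and CYFIP2 (0.29). SPP1, the matrix protein osteopontin, read 5.77 and 5.95 in LM2 and 6.21 in LM1, against 8.32 and 7.70 in SN12C. With 5 arrays, many genes share such a profile, and the likeness is a description.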

How the data were processed

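RNA of the lines LM2 (2 arrays), LM1 (1) and SN12C (2) was hybridised to Affymetrix arrays. The deposited values are log2 signals, 1 for each probe set on each array. The submitters' processing notes name RMA and Partek; their versions are not given in the sources used here. RMA subtracts background, brings arrays towards a common distribution and combines the probes of a set, which can hide a difference in total signal. The deposited columns do not share 1 distribution: array medians lay between 6.51 and 6.57. The number of arrays limits the precision.

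The 62 control probe sets were left out. The platform table named 1 gene for 41091 of the rest; probe sets with several genes were not used for names. Probe sets at or above the 40th percentile of all values (6.03) on at least 2 arrays were tested (33376) with limma 3.58.1 in R 4.3.3, 1 mean per line over all 5 arrays, 2 residual and 1.21 prior degrees of freedom, and Benjamini-Hochberg adjustment over all of them. Nothing says that replicates came from separate cultures beyond the label, so p-values cover only the variation among these arrays. The fit was tested on simulated data. Gene names and order came from a RefSeq table of GRCh38.p14. Genes were named by rule: all 10 collagens, the 4 largest LM2 differences of each list, and the 3 most similar profiles. In the renal, endothelial, lung epithelial and leukocyte marker lists, only some or none of those 4 were named. Further list genes past the looser rule, and VIM, PAX2, LHX1, CDH16, CDH5, LUM, DPT, FAP, COL1A1, DCN, PDPN and COL4A6, were named after their values were seen. Members, lists and tests were chosen with earlier results of these data known. Alternatives covered the filter, probe set rule, normalization, eBayes options, arrays, ties, leaving out a replicate, and a replicate as block. Figures were drawn with matplotlib 3.10.9.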

Additional observations from a re-analysis of the deposited data

How the results depend on the processing

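The fit has 2 residual degrees of freedom, and probe sets near 6.03 (COL4A5, COL6A3, COL8A1 in LM2) have uncertain differences. Probe sets past an adjusted p of 0.05 numbered 0 in LM2 minus SN12C under every alternative except leaving out a replicate, where the count lay between 0 and 8105. The highest came without SN12C replicate 2. Leaving out either SN12C replicate leaves only the spread of the LM2 pair, and the cause of this range was not tested. In LM1 minus SN12C they numbered 1172 after a further quantile normalization, 282 without tied probe sets and 0 to 10386 without a replicate (6379 without SN12C replicate 1, 10386 without SN12C replicate 2). In LM2 minus LM1 the counts were 325, 13 and 0 to 5776 in that order, and 5776 with only the arrays of those lines or without either SN12C array; the cause was not tested. Lead probe sets higher in LM2 by the looser rule (4) numbered 1 without _x_at and _s_at probe sets, since the lead probe sets of COL6A1, COL6A2 and COL18A1 are of that type and were not replaced, 2 after quantile normalization and 1 to 3 without a replicate (1 without LM2 replicate 1, 2 without LM2 replicate 2 or SN12C replicate 1). COL8A1 met the rule in LM2 each time. In LM1 the 3 became 0 without those types, 5 with arrays centred on their median and 3 to 4 without a replicate, and the 1 lower became 0 to 1 (0 without SN12C replicate 1).

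All tested probe sets past the looser rule in LM2 numbered 336 higher and 283 lower, against 201 and 167 without _x_at and _s_at probe sets, 187 and 160 with 1 probe set per gene, and 131 to 2249 and 130 to 459 without a replicate. In LM1, 1386 higher and 1534 lower became 725 and 220 with 1 probe set per gene, 953 and 553 without those types, 737 and 822 with only the arrays compared, and 737 to 3022 and 822 to 2476 without a replicate. In LM2 minus LM1, 1889 higher and 539 lower became 191 and 233, 648 and 364 under the first 2 of these and 718 to 2316 and 294 to 547 without a replicate.

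None of 129 alternative values of the 9 tested collagens reversed in LM2 minus SN12C, though COL13A1 stood at 0 without SN12C replicate 2. Of 120 in LM1 minus SN12C, 6 reversed: COL4A1 stood at -0.0201 after quantile normalization, -0.18 without SN12C replicate 1 (0.42 without replicate 2) and -0.30 as the median of its probe sets, COL4A2 at 0.0278 with arrays centred on their median and 0.0716 without SN12C replicate 2 (-0.11 without replicate 1), and COL6A1 at -0.0192 as the median of its probe sets. Of 120 in LM2 minus LM1, 2 reversed, both as the median over probe sets: COL4A2 at 0.62 and COL6A1 at 0.43. COL6A3 stood at 0 in 1 value of each of these comparisons with LM1, without 1 array. With the replicate block, 0 probe sets passed in LM2 minus SN12C, and 4 lead probe sets were higher and 1 lower as before. Deviations of same-numbered arrays correlated at 0.07 across probe sets. With 2 arrays in each of these lines, this single correlation cannot tell whether same-numbered arrays share more than a number.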
